A study of Mus musculus with 6 samples.

Results

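The genes of inhibitory transmission by GABA and glycine were followed in the PN18 mouse retina. They cover the receptors for both, the enzymes that make and break down GABA, and the transporters that pack and clear both transmitters. The postsynaptic scaffold and the cotransporters that set neuronal chloride are also among them. The 29 genes were chosen by name and matched by identifier among the 32285 genes of the count table, where 29 were present. OIR-CIH retinas were compared with OIR-Norm retinas to ask whether CIH alters RNA levels in a retina that is already ischemic. No gene of the 29 passed the test. Of 7 ratios between related genes, the groups did not overlap in 3. Glra1 to Glra2 was lower in OIR-CIH, and Gad1 to Gad2 and Gabrr1 to Gabrr2 were higher. Each had an exact permutation p of 0.1, the smallest that 3 against 3 libraries allow, and 0.233 after adjustment over the 7. Of single genes tested, 18.4% did not overlap, and no such share was taken for ratios. The pairs were chosen with earlier results of these data known.

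GABA and glycine open chloride channels in the postsynaptic membrane, so the effect of both depends on how much chloride the neuron keeps inside. In the retina, GABA is released mainly by amacrine and horizontal cells and glycine by small-field amacrine cells, and rho-type GABA receptors are known from the axon terminals of bipolar cells, where they truncate glutamate release. Glycine receptors combine an alpha subunit with the beta subunit, which ties them to the scaffold gephyrin. During development the chloride importer Slc12a2 (NKCC1) gives way to the exporter Slc12a5 (KCC2), and in spinal cord the alpha subunit Glra2 of the fetus is replaced by Glra1.

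All mice were wild-type C57BL/6J and were at PN18 when the eyes were taken. Both groups had the oxygen-induced retinopathy model (OIR), in which 75% O2 from PN8 to PN13 removes capillaries from the central retina. OIR-CIH mice then had chronic intermittent hypoxia for 10 h each day, as 266 cycles of 135 s in which O2 went from 20.95% to 5% and back. OIR-Norm mice were given an equal flow of gas with no change in O2, and no group without hyperoxia was sequenced, so that both arms carry the model. Each group had 3 libraries, made from 250 ng of retinal RNA with a stranded poly(A) kit.

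The total count was between 26289905 and 38010151 per library, and the groups overlapped. Each library held Xist (298 to 1653 CPM, the count divided by the TMM-scaled library size and multiplied by 1000000) together with RNA of 4 Y-linked genes (57.3 to 184 CPM summed). The extraction notes count 3 eyes in each group, or 1 eye per library, which is at odds with RNA of both sexes in each. The number of animals behind a library is therefore not known, and with no label that names separate animals the p-values measure the spread between these libraries. Of the 12 amacrine, 10 bipolar and 9 retinal ganglion cell markers that stand for retinal tissue, 0 were without counts in all libraries. After genes with a total count under 10 were removed, 20021 genes were tested with edgeR's quasi-likelihood test, and 63 were called, that is, had a Benjamini-Hochberg adjusted p under 0.05 and differed by more than 0.5 on the log2 scale (0.315% of genes tested).

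Of the 29 genes, 29 were tested and 0 were called in OIR-CIH against OIR-Norm by edgeR's quasi-likelihood test, against 0.315% of all genes tested. With an adjusted p under 0.05 at any fold change there were also 0, against 0.39% of all genes tested, and the lowest adjusted p among them was 0.303, for Gabrr1. At an unadjusted p under 0.05 there were 3 (Gabrr1, Glra2 and Glra1), which is 10.3% of the 29 and compares with 13.2% of all genes tested. Gabrr1 and Glra2 were higher in OIR-CIH, where 6.2% of all genes tested had such a p, and Glra1 was lower, where 7.01% did. DESeq2 called 0 of the 29, with 4 at an unadjusted p under 0.05, while calling 0.858% of the genes it gave an adjusted p. In limma on log2(CPM + 0.5), 0 were called and 3 had an unadjusted p under 0.05. Leaving out OIR-Norm replicate 1 or 2 brought the edgeR count of 3 down to 1, and leaving out OIR-CIH replicate 2 raised it to 5.

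The log2 fold change was positive, that is, higher in OIR-CIH, for 17 of the 29 and negative for 12 (58.6% positive, against 49.5% of all genes tested), with a median of 0.0557 beside -0.0028 over all genes tested. Without OIR-CIH replicate 3 the split was 15 to 14 and the median 0.0052, and with plain library totals in place of TMM the split was 16 to 13. Groups did not overlap for 3 of the 29 (Gabra3, Gabrr1 and Glra2), each higher in OIR-CIH, where 18.4% of all genes tested did not overlap 9.12% with OIR-CIH on top and 9.26% with OIR-CIH below.

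The intervals limit how large a change could have been missed. For 23 of the 29 the 95% interval of the log2 fold change lay within 0.5 of 0, against 54.2% of all genes tested, a set that holds many genes of low count. Of the 23 members that averaged at least 10 CPM in a group, 21 had such an interval, beside 90.8% of the genes with a mean of at least 10 CPM. The 6 with wider intervals were Gabra4, Gabra5, Glra1, Glra2, Glra4 and Slc6a5, so that a change beyond 0.5 is not excluded by the interval for those 6.

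**Figure D1:**
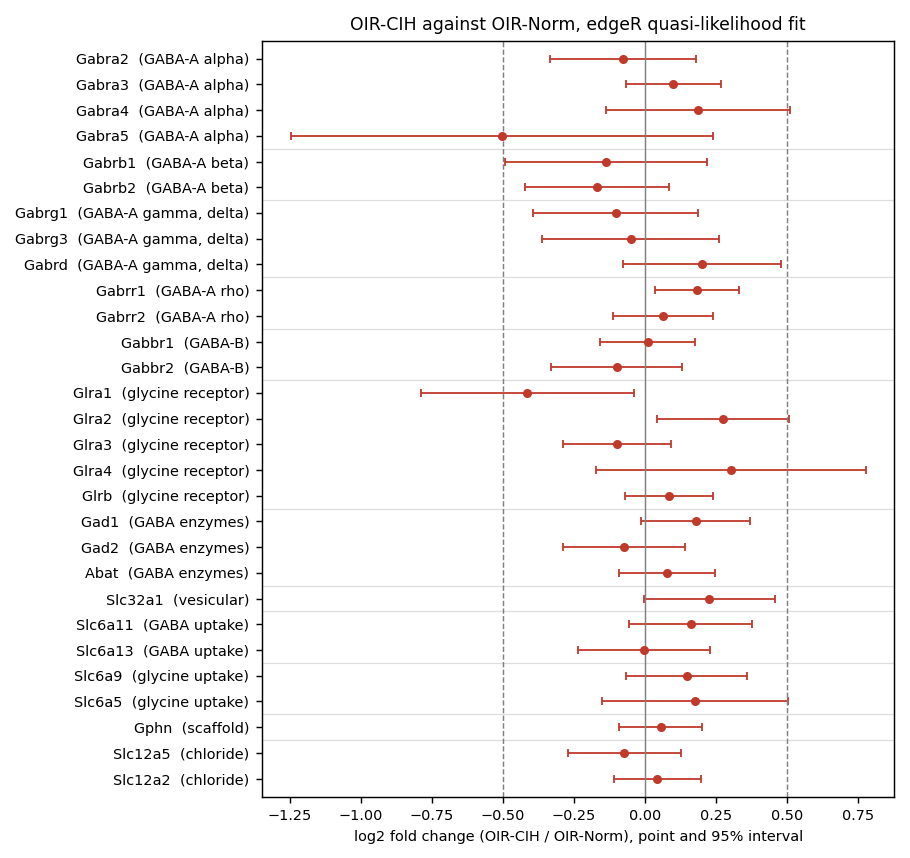
Log2 fold change of each of the 29 genes (x axis, OIR-CIH minus OIR-Norm, edgeR) with its 95% interval, ordered by role on the y axis. The intervals of Gabrr1 and Glra2 lie above 0 and that of Glra1 lies below it, and the widest, that of Gabra5, runs from -1.25 to 0.24.

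Levels differed between the genes far more than between the groups. Per kilobase of exon, the chloride exporter Slc12a5 (KCC2) was the most abundant member, at 97.2 ± 6.89 CPM per kb in OIR-CIH and 102 ± 4.63 in OIR-Norm (mean ± SD, n = 3 libraries, as below). In OIR-Norm the GABA transporter Slc6a11 followed at 40.5 ± 2.45 CPM per kb and the rho subunit Gabrr1 at 39.2 ± 0.453, which differ by less than their spread. The vesicular transporter Slc32a1 (24.0 ± 1.13), the GABA-B subunit Gabbr1 (23.4 ± 1.21) and the enzyme Gad1 (22.8 ± 1.54) came next and could not be ordered beyond their SDs. The lowest level per kb among the 29 was that of Gabra5, at 0.351 ± 0.0365 in OIR-Norm. Exon lengths were summed over all annotated transcripts, and with the longest transcript in their place Gad1 moved from rank 6 to rank 3 and Slc32a1 from rank 4 to rank 7, while Slc12a5, Slc6a11 and Gabra5 had ranks 1, 2 and 29 either way.

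**Figure D2:**
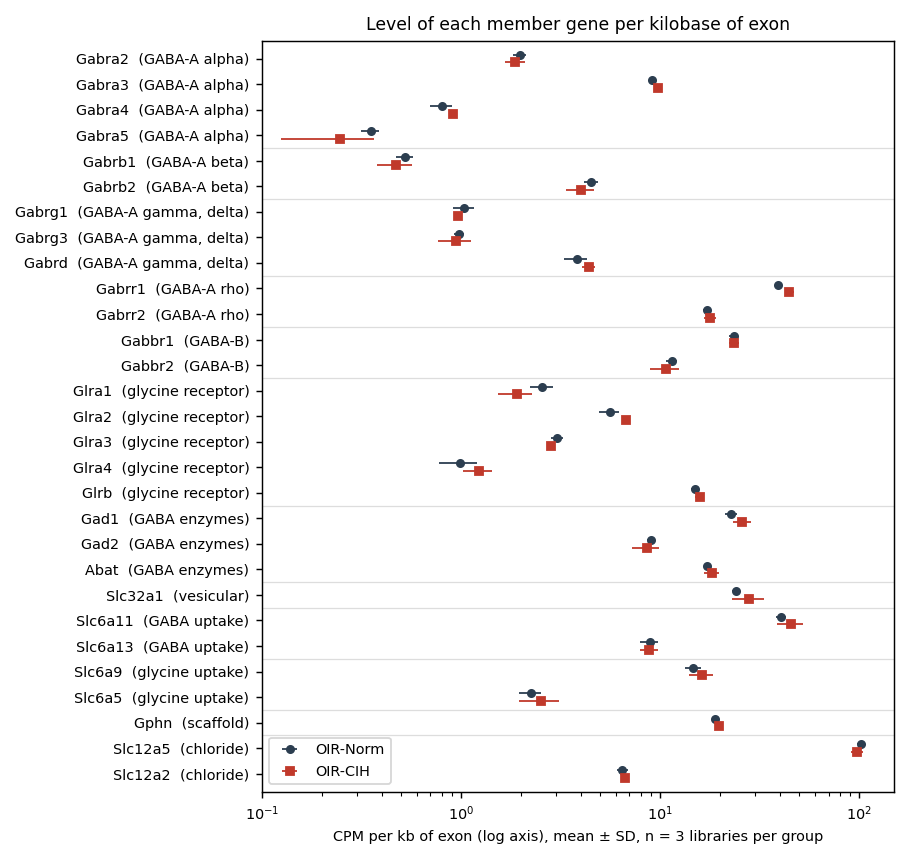
Mean level of each of the 29 genes per kilobase of exon (x axis, CPM per kb, log axis) in OIR-Norm (circles) and OIR-CIH (squares), with the SD over 3 libraries as bars. Levels run from 0.351 CPM per kb for Gabra5 to 102 for Slc12a5 in OIR-Norm, and the symbols of both groups sit close together in each row.

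The GABA-A receptor is a pentamer of alpha, beta and gamma or delta subunits, or of rho subunits alone. Of the 11 GABA-A subunit genes, 5 had a positive and 6 a negative log2 fold change, with a median of -0.05, and 0 passed. Among the alpha subunits, which set the response of the receptor to many drugs, Gabra3 had the highest level per kb, at 9.11 ± 0.248 CPM per kb in OIR-Norm. Gabra3 measured 37.6, 40.3 and 37.0 CPM in the OIR-CIH libraries and 35.1, 35.2 and 36.8 CPM in the OIR-Norm libraries. The lowest OIR-CIH value and the highest OIR-Norm value were almost equal, and the log2 fold change of 0.10 (SE 0.08, edgeR adjusted p = 0.620) was not past the test.

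Gabra2 was at 14.3 ± 1.65 CPM in OIR-CIH and 15.1 ± 1.14 in OIR-Norm, with a log2 fold change of -0.08 (95% interval -0.34 to 0.18). Gabra4, an alpha subunit often found with delta outside synapses, was at 5.54 ± 0.238 and 4.85 ± 0.624 CPM (log2 fold change 0.19, 95% interval -0.14 to 0.51). The member of lowest level, Gabra5, which is also known from extrasynaptic receptors, rested on 10 to 33 counts per library. Its OIR-CIH values of 0.392, 1.11 and 0.688 CPM ran across those of OIR-Norm at 0.941, 1.16 and 1.04, and the log2 fold change of -0.50 had a 95% interval of -1.25 to 0.24. It was -0.24 without OIR-CIH replicate 1 and -0.91 without OIR-CIH replicate 2.

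The beta subunits complete the GABA binding site. Gabrb2 was at 21.4, 25.3 and 29.5 CPM in OIR-CIH and 26.2, 28.9 and 30.8 CPM in OIR-Norm (log2 fold change -0.17, 95% interval -0.42 to 0.08). The groups overlapped, and the lowest value was that of OIR-CIH replicate 1. Gabrb1 was lower in level, at 6.53 ± 1.32 and 7.22 ± 0.674 CPM in OIR-CIH and OIR-Norm (log2 fold change -0.14, 95% interval -0.49 to 0.22), and without OIR-CIH replicate 1 its log2 fold change was 0.01.

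Of the gamma subunits, which take part in anchoring the receptor at synapses, Gabrg1 was at 7.58 ± 0.333 CPM in OIR-CIH and 8.13 ± 1.0 in OIR-Norm, and Gabrg3 at 11.2 ± 2.14 and 11.7 ± 0.673 CPM. Their log2 fold changes of -0.10 and -0.05 had 95% intervals of -0.40 to 0.19 and -0.36 to 0.26. Gabrd encodes delta, the subunit of tonic inhibition, and was at 11.7, 13.7 and 12.3 CPM in OIR-CIH and 10.4, 9.82 and 12.6 CPM in OIR-Norm (log2 fold change 0.20, SE 0.13, 95% interval -0.08 to 0.48). Its groups overlapped through OIR-Norm replicate 3 alone, which was above the values of OIR-CIH replicates 1 and 3.

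Several of these genes are neighbours. In GENCODE M21 on GRCm38, which is not the annotation the authors counted with, Gabrg1 (chr5:70751047-70842617), Gabra2 (chr5:70957597-71095849) and Gabra4 (chr5:71569749-71658308) lie on the minus strand of chromosome 5 next to Gabrb1 (chr5:71658113-72149037) on the plus strand. Gabrg3 (chr7:56716465-57387188) and Gabra5 (chr7:57407672-57510059) are adjacent on the minus strand of chromosome 7. Of these 6 neighbours, Gabra4 alone had a positive log2 fold change, and none passed. The X chromosome carries 3 members, Gabra3, Glra2 and Glra4, with log2 fold changes of 0.10, 0.27 and 0.30.

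The rho subunits form the slow, sustained GABA receptors of bipolar cell terminals, and both genes lie side by side on the plus strand of chromosome 4 (Gabrr2 at chr4:33062999-33095865, Gabrr1 at chr4:33132521-33163588). Gabrr1 measured 102, 95.9 and 106 CPM in the OIR-CIH libraries and 88.7, 90.7 and 89.2 CPM in the OIR-Norm libraries, from 2585 to 4019 counts per library. All 3 OIR-CIH values stood above all 3 OIR-Norm values. The log2 fold change was 0.18 (SE 0.07, 95% interval 0.03 to 0.33, edgeR adjusted p = 0.303), or 1.13-fold, and it stayed between 0.14 and 0.22 when single libraries were left out. Its partner Gabrr2 was at 37.6 ± 2.52 CPM in OIR-CIH and 35.9 ± 1.26 in OIR-Norm, with overlapping groups and a log2 fold change of 0.06 (95% interval -0.11 to 0.24).

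The 10 bipolar cell markers, set beside the rho subunits, had 5 positive and 5 negative log2 fold changes with a median of 0.02, and their summed level ran from 1418 to 1458 CPM in OIR-CIH and from 1371 to 1624 CPM in OIR-Norm. In whole retina, fewer cells of a type and less RNA per cell cannot be told apart for any gene reported here.

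The metabotropic GABA-B receptor is an obligate pair of Gabbr1, which binds GABA, and Gabbr2, which couples to the G protein. Gabbr1 was at 183 ± 11.2 CPM in OIR-CIH and 182 ± 9.41 in OIR-Norm, a log2 fold change of 0.01 (95% interval -0.16 to 0.18). Gabbr2 was at 58.4, 73.4 and 81.9 CPM in OIR-CIH and 74.9, 81.7 and 72.6 CPM in OIR-Norm (log2 fold change -0.10, 95% interval -0.33 to 0.13). The lowest of the 6 values was that of OIR-CIH replicate 1, without which the log2 fold change was 0.02. The sign of the Gabbr1 change was not fixed by these data, since the use of plain library totals gave -0.02.

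Among the 5 glycine receptor genes, the fold changes of the alpha subunits Glra2 and Glra1 had opposite signs. Glra2 measured 20.4, 20.9 and 22.3 CPM in OIR-CIH and 16.2, 16.5 and 19.9 CPM in OIR-Norm, from 471 to 842 counts per library. Its groups did not overlap, although OIR-Norm replicate 3 came close to the lowest OIR-CIH value. The log2 fold change was 0.27 (SE 0.11, 95% interval 0.04 to 0.51, edgeR adjusted p = 0.316), between 0.22 and 0.37 when single libraries were left out.

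Glra1, the alpha subunit of the mature receptor in spinal cord, measured 3.85, 4.37 and 5.58 CPM in OIR-CIH and 5.32, 6.17 and 7.01 CPM in OIR-Norm, from 98 to 223 counts per library. The highest OIR-CIH value, that of replicate 3, stood above the lowest OIR-Norm value, that of replicate 1, and the other values were separated. The log2 fold change was -0.41 (SE 0.17, 95% interval -0.79 to -0.04, edgeR adjusted p = 0.345), between -0.59 and -0.31 when single libraries were left out. An antisense gene of the annotation covers 5.8% of the exon length of Glra1, and which strand column was counted is not stated.

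The remaining alpha genes were Glra3, at 26.1 ± 0.736 CPM in OIR-CIH and 28.0 ± 1.82 in OIR-Norm (log2 fold change -0.10, 95% interval -0.29 to 0.09), and Glra4, at 2.46 ± 0.415 and 1.99 ± 0.437 CPM from 51 to 91 counts per library (log2 fold change 0.30, 95% interval -0.17 to 0.78). The shared beta subunit Glrb was at 73.6 ± 3.93 CPM in OIR-CIH and 69.5 ± 2.74 in OIR-Norm, a log2 fold change of 0.08 (95% interval -0.07 to 0.24). Per kb, Glrb at 14.9 ± 0.589 CPM in OIR-Norm was above the 4 alpha genes, of which Glra2 was the highest at 5.56 ± 0.643. Gephyrin (Gphn), the scaffold to which Glrb binds, was at 73.0, 74.3 and 74.0 CPM in OIR-CIH and 67.8, 71.3 and 73.8 CPM in OIR-Norm, a log2 fold change of 0.06 (95% interval -0.09 to 0.20).

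**Figure D3:**
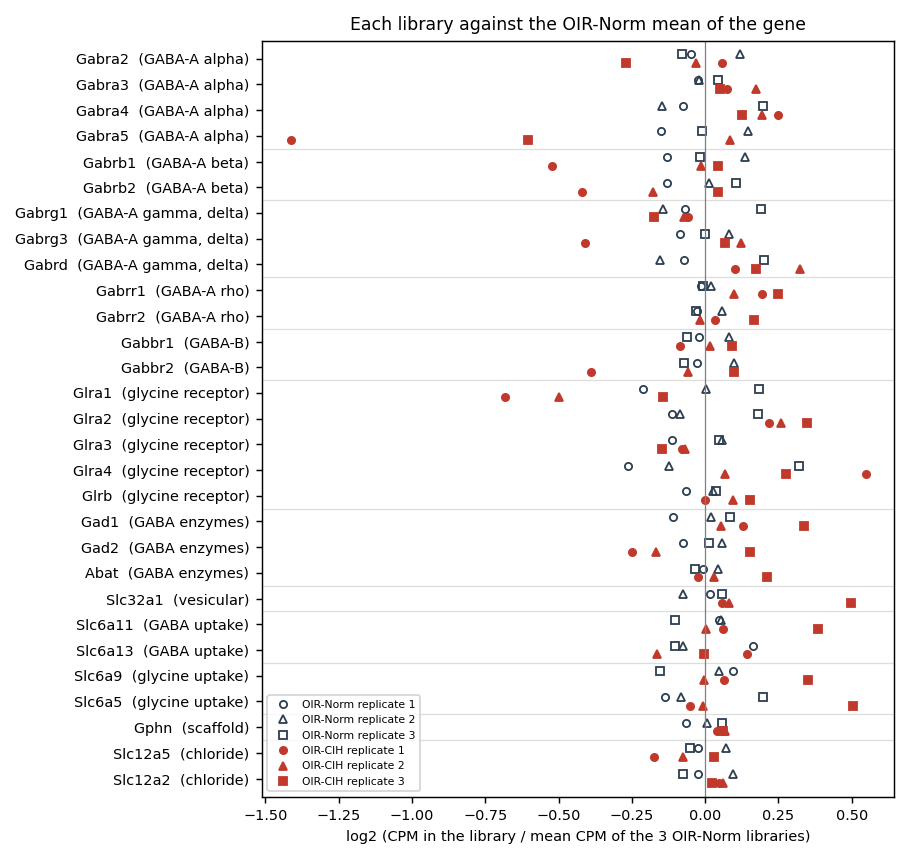
Level of each of the 29 genes in each library as log2 of its CPM over the mean of the 3 OIR-Norm libraries (x axis), 1 point per library, ordered by role. Gabra3, Gabrr1 and Glra2 are the rows in which the OIR-CIH points lie to the right of the OIR-Norm points with no overlap, and OIR-CIH replicate 3 has the highest value in 13 rows.

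GABA is made from glutamate by glutamate decarboxylase, whose isoforms are encoded by Gad1, which supplies most of the cell's GABA, and Gad2, which is bound to synaptic vesicles. Gad1 measured 190.0, 180.4 and 219.7 CPM in OIR-CIH and 161, 176 and 184 CPM in OIR-Norm. The groups overlapped by 1 OIR-Norm library, and the log2 fold change was 0.18 (SE 0.09, 95% interval -0.01 to 0.37, edgeR adjusted p = 0.417). Without OIR-CIH replicate 3 it was 0.09. Gad2 was at 44.5, 47.1 and 58.8 CPM in OIR-CIH and 50.2, 55.0 and 53.4 CPM in OIR-Norm (log2 fold change -0.07, 95% interval -0.29 to 0.14), and here OIR-CIH replicate 3 was above the OIR-Norm values and the other OIR-CIH replicates below them. Abat, the transaminase that breaks down GABA, was at 141 ± 12.2 and 133 ± 3.67 CPM (log2 fold change 0.08, 95% interval -0.09 to 0.25).

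Slc32a1 loads both GABA and glycine into vesicles. It measured 69.8, 71.0 and 94.7 CPM in OIR-CIH and 67.9, 63.7 and 69.9 CPM in OIR-Norm. OIR-CIH replicate 3 stood above the other libraries, and the log2 fold change was 0.23 with it (SE 0.11, 95% interval -0.004 to 0.46, edgeR adjusted p = 0.385) and 0.06 without it. An antisense gene of the annotation covers 24.9% of the exon length of Slc32a1.

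The plasma membrane transporters end transmission by uptake. Slc6a11, a GABA transporter known from glia, was at 214, 205 and 267 CPM in OIR-CIH and 211, 212 and 190.3 CPM in OIR-Norm (log2 fold change 0.16, 95% interval -0.06 to 0.38), and without OIR-CIH replicate 3 the log2 fold change was 0.03. Slc6a13, known from barrier epithelia and meninges, was at 25.6 ± 2.71 and 25.7 ± 2.66 CPM (log2 fold change -0.0035, 95% interval -0.24 to 0.23). For glycine, Slc6a9 (GlyT1), the transporter of glia and of glycinergic amacrine cells, was at 78.8, 75.0 and 96.1 CPM in OIR-CIH and 80.4, 77.9 and 67.7 CPM in OIR-Norm (log2 fold change 0.15, 95% interval -0.07 to 0.36, and 0.03 without OIR-CIH replicate 3). Slc6a5 (GlyT2), the neuronal transporter of brainstem and spinal cord, was lower, at 2.24 ± 0.287 CPM per kb in OIR-Norm against 14.6 ± 1.31 for Slc6a9. Its values were 15.5, 16.0 and 22.9 CPM in OIR-CIH and 14.6, 15.2 and 18.5 CPM in OIR-Norm (log2 fold change 0.18, 95% interval -0.15 to 0.50), and the sign turned without OIR-CIH replicate 3, to -0.03. Antisense genes cover 30.2% of the exon length of Slc6a9.

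OIR-CIH replicate 3 had the highest of the 6 values for 13 of the 29 genes, and its median deviation over the 29 was 0.11 on the log2 scale, where that of all genes in the same library was 0.01. The spread within a group, as the coefficient of variation, had a median of 10.4% over the 29 genes in OIR-CIH and 6.50% in OIR-Norm.

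Amacrine cells are the main source of both transmitters in the retina. Of 12 amacrine markers, 11 had a positive log2 fold change and 1 was negative, with a median of 0.19, beside a median of -0.0028 over all genes tested. Their summed level was 849, 905 and 983 CPM in OIR-CIH and 796, 833 and 875 CPM in OIR-Norm, with the highest sum in OIR-CIH replicate 3. The most abundant, the transcription factors Pax6 and Tfap2b and the calcium-binding protein Calb2, had edgeR adjusted p-values of 0.432, 0.447 and 0.947. Prdm13, a transcription factor of amacrine cell development that was chosen after its values were seen, was called, at 30.7, 27.5 and 36.0 CPM in OIR-CIH against 21.1, 19.6 and 22.6 CPM in OIR-Norm (log2 fold change 0.58, edgeR adjusted p = 0.0470). Prdm13 was also called by DESeq2 and limma, with median-of-ratios scaling, with all genes that had any count and with the replicate block. Plain library totals and edgeR's own filter on low counts did not call it. Of the fits without single libraries, those without OIR-CIH replicate 2 or OIR-Norm replicate 3 called it and the others did not. The paper also lists Prdm13 among its genes changed in OIR-CIH, from the same data. The negative marker, Slc17a8, a vesicular glutamate transporter of a class of amacrine cells, was also chosen after its values were seen. It was at 18.4, 15.8 and 17.6 CPM in OIR-CIH and 22.0, 22.9 and 23.6 CPM in OIR-Norm, without overlap (log2 fold change -0.40, edgeR adjusted p = 0.142). The 6 horizontal cell markers had 5 positive log2 fold changes with a median of 0.19. They summed to 311 to 341 CPM in OIR-CIH and 290.4 to 305 CPM in OIR-Norm. Tfap2a (log2 fold change 0.27) is in both the amacrine and the horizontal list, so that their medians are not separate from each other. The part of these cells in the values of the 29 genes was not tested.

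**Figure D4:**
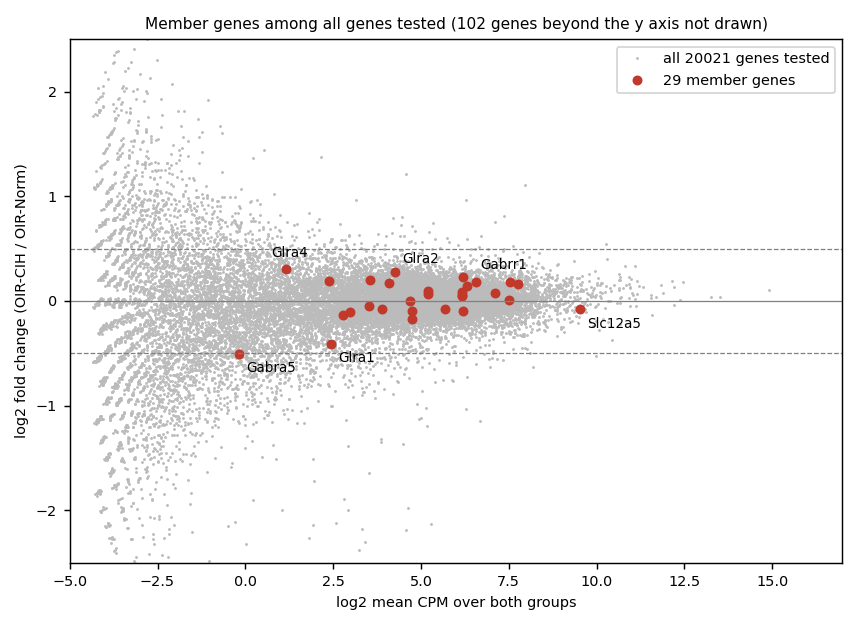
Log2 fold change (y axis, OIR-CIH minus OIR-Norm, edgeR) against mean level (x axis, log2 CPM) of the 20021 genes tested, in grey, with the 29 genes of GABA and glycine transmission marked. The 29 lie between -0.50 for Gabra5 and 0.30 for Glra4 and inside the spread of the other genes, and 102 genes fall beyond the y axis.

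Markers of other cell types were set beside the 29 genes in the same way. The 8 Müller glia markers, set beside Slc6a11 and Slc6a9, had 5 positive and 3 negative log2 fold changes (median 0.06) and summed to 3364 to 4074 CPM in OIR-CIH and 3313 to 3632 CPM in OIR-Norm. The 9 retinal ganglion cell markers had a median of 0.0047. Of 7 rod markers, 7 were positive with a median of 0.16, and 3 were without overlap, against 18.4% of all genes tested. In the edgeR fit reported here 0 were called. At an unadjusted p under 0.05 there were 2, against 13.2% of all genes tested. Nr2e3, chosen after its values were seen, had a log2 fold change of 0.55 (edgeR adjusted p = 0.0764). It was called by DESeq2, and by edgeR with all genes that had any count or with the replicate block. Like Prdm13, it is among the genes the paper lists as changed in OIR-CIH, from the same data. The 7 rod markers summed to 22959 to 26141 CPM in OIR-CIH and 19377 to 25332 CPM in OIR-Norm. The 8 pigment epithelium markers had 5 positive and 3 negative log2 fold changes, with a median of 0.56. They summed to 425 to 628 CPM in OIR-CIH and 270.0 to 521 CPM in OIR-Norm. The 7 pericyte and smooth muscle markers had 0 positive and 7 negative, with a median of -0.51. These summed to 85.7 to 132 and 94.0 to 228 CPM. Both medians lay farther from 0 than those of the other lists, and the sums overlapped in both cases. At an unadjusted p under 0.05 in edgeR there were 5 and 3, against 13.2% of all genes tested, and 0 were called. The part of these cell types in the values above was not tested.

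The chloride cotransporters decide whether GABA and glycine inhibit or excite. Slc12a5 (KCC2), found in neurons, measured 674, 721 and 776 CPM in OIR-CIH and 748, 800.0 and 735 CPM in OIR-Norm, from 17169 to 29334 counts per library. The lowest value was that of OIR-CIH replicate 1, and the groups overlapped (log2 fold change -0.07, SE 0.09, 95% interval -0.27 to 0.13, edgeR adjusted p = 0.782). Slc12a2 (NKCC1), the importer, was at 72.7, 73.4 and 71.6 CPM in OIR-CIH and 69.2, 75.3 and 66.8 CPM in OIR-Norm (log2 fold change 0.04, 95% interval -0.11 to 0.20). Both intervals lay within 0.5 of 0.

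Ratios of related genes within a library do not depend on how libraries are scaled, and 7 were compared, each with an exact two-sided permutation test whose smallest possible p is 0.1. The count of Slc12a5 over that of Slc12a2, exporter over importer, was 9.27, 9.82 and 10.8 in OIR-CIH and 10.8, 10.6 and 11.0 in OIR-Norm. OIR-CIH replicate 3 reached the OIR-Norm values and the other OIR-CIH libraries stayed under them (log2 difference -0.12, exact permutation p = 0.3, adjusted over the 7 to 0.42).

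Glra1 over Glra2 showed the largest difference of the 7. The ratio of counts was 0.190, 0.209 and 0.251 in OIR-CIH and 0.329, 0.374 and 0.353 in OIR-Norm, or 0.217 ± 0.0314 and 0.352 ± 0.0225 (SD, n = 3). Each OIR-CIH library was below each OIR-Norm library. The log2 difference was -0.71, with an exact permutation p = 0.1, the smallest this design allows, and 0.233 after adjustment over the 7 ratios. It lay between -0.82 and -0.62 when single libraries were left out. The ratio holds together both glycine receptor genes whose own edgeR intervals excluded 0, so that it is not separate evidence from them.

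The ratio of Gad1 to Gad2 was 4.27, 3.83 and 3.73 in OIR-CIH and 3.20, 3.20 and 3.45 in OIR-Norm. All OIR-CIH values were above all OIR-Norm values (log2 difference 0.26, exact permutation p = 0.1, adjusted 0.233), and OIR-CIH replicate 3, which was high for both genes, had the lowest ratio of its group. Without single libraries the difference lay between 0.20 and 0.30. Gabrr1 over Gabrr2 was 2.78, 2.7 and 2.63 in OIR-CIH and 2.51, 2.42 and 2.54 in OIR-Norm, again without overlap (log2 difference 0.12, exact permutation p = 0.1, adjusted 0.233).

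Groups overlapped in the remaining ratios. Gabbr1 over Gabbr2 was 2.60 ± 0.297 in OIR-CIH and 2.38 ± 0.0244 in OIR-Norm (exact permutation p = 0.3, adjusted 0.42), and the log2 difference of 0.12 was 0.03 without OIR-CIH replicate 1. Slc6a11 over Slc6a13 was 8.97 ± 1.44 and 8.00 ± 0.676 (exact permutation p = 0.4, adjusted 0.467), and its log2 difference of 0.16 was 0.04 without OIR-CIH replicate 3. Slc6a9 over Slc6a5 was 4.65 ± 0.433 and 4.75 ± 0.964 (exact permutation p = 0.9, adjusted 0.9).

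**Figure D5:**
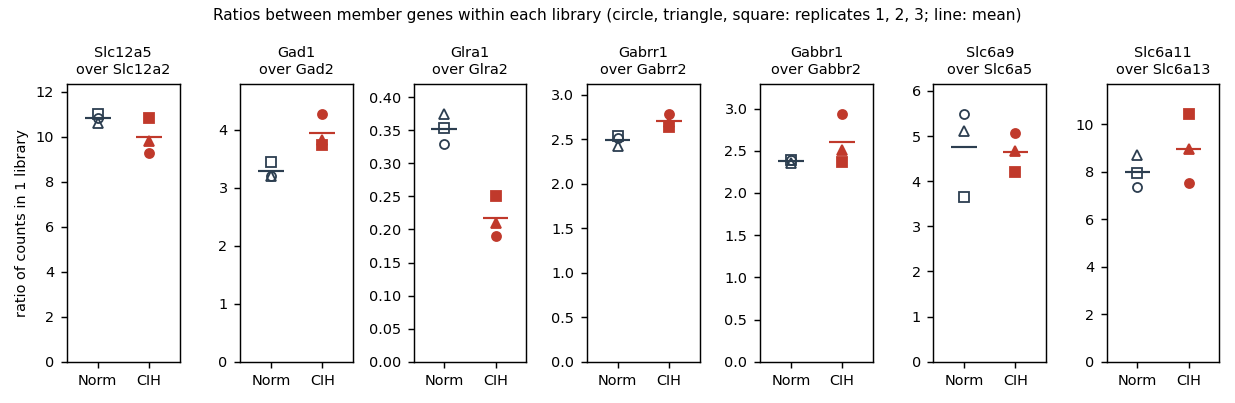
Ratio of counts of 7 pairs of related genes in each library (y axes start at 0), 1 point per library, with the mean as a line, for OIR-Norm and OIR-CIH. In Glra1 over Glra2 the OIR-CIH points (0.190 to 0.251) lie below the OIR-Norm points (0.329 to 0.374), and in Gad1 over Gad2 and Gabrr1 over Gabrr2 they lie above.

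For GABA and glycine signalling, 46 further genes were listed. They were other GABA-A subunits and genes of GABA transport and breakdown, the inhibitory postsynapse and glycine metabolism. GABA-B auxiliary subunits and the kinases and relatives of the chloride cotransporters made up the rest. Of the 46, 42 were tested and 0 were called by edgeR's quasi-likelihood test, against 0.315% of all genes tested. At an unadjusted p under 0.05 there were 5 (11.9%), against 13.2% of all genes tested. The log2 fold change was positive for 19 and negative for 23, with a median of -0.0072. Of the 42 intervals, 35 lay within 0.5 of 0, against 54.2% of all genes tested, a set that holds many genes of low count. Among genes with a mean of at least 10 CPM the share was 90.8%, and the 42 were not divided by level. DESeq2 and limma also called 0.

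The 3 of lowest p stand for other steps of the pathway. Stk39, the kinase that activates the importer Slc12a2 and restrains the exporter Slc12a5, was at 82.3, 77.7 and 73.7 CPM in OIR-CIH and 65.9, 61.2 and 72.8 CPM in OIR-Norm (log2 fold change 0.22, SE 0.08, edgeR adjusted p = 0.289). Its groups did not overlap, as for 18.4% of all genes tested, with 73.7 and 72.8 CPM as the closest values. Of the 8 kinases and relatives of the chloride cotransporters listed, 2 were positive and 6 were negative, with a median of -0.07. Kctd8, an auxiliary subunit of the GABA-B receptor, had a log2 fold change of 0.27 (SE 0.11, edgeR adjusted p = 0.319), with overlapping groups. Of the 4 GABA-B auxiliary subunits listed, 1 was positive and 3 were negative, with a median of -0.16. Gabarapl2, a relative of the GABA-A receptor-associated protein that acts in autophagy and membrane traffic, had a log2 fold change of 0.24 (SE 0.10, edgeR adjusted p = 0.339).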

How the data were processed

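Retinal RNA of 3 OIR-CIH and 3 OIR-Norm libraries at PN18 was analysed from the deposited table of raw counts. Per their methods the authors aligned the reads with STAR (2.7.9a in the submitters' processing notes), counted reads per gene and deposited these whole-number counts without normalization. The methods name Ensembl 105 and the notes GRCm38, and the strand column kept is not stated. How reads on overlapping antisense genes were counted is therefore not known. The authors' own test was DESeq, on genes whose counts summed to 10 or more.

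Here edgeR 4.0.16 in R 4.3.3 (quasi-likelihood test, TMM scaling, total count of at least 10, Benjamini-Hochberg adjustment over the 20021 genes tested) compared the groups, and a call needed an adjusted p under 0.05 and a log2 fold change beyond 0.5, the thresholds of the study's methods. The 95% intervals use the standard error and degrees of freedom of that fit. CPM use TMM-scaled library sizes, and levels were divided by the exon length of GENCODE M21, which also gave the symbols of 32158 of the 32285 genes. Ratios were taken as log2 of counts with 0.5 added. The steps were tested on simulated data. Total counts of 26289905 to 38010151 set the counting error, which is largest for genes of few counts such as Gabra5.

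The 29 genes, the pathway and marker lists and the ratios were chosen with earlier results of these data known. The 29 genes are named, as are called genes of the pathway list or otherwise its 3 of lowest p, and at most 3 markers of a list by mean CPM. Prdm13, Slc17a8 and Nr2e3 lie outside this rule. Of 142 listed symbols, 2 were not matched. Alternatives were DESeq2 1.42.0, limma 3.58.1 on log2(CPM + 0.5), other scaling, other filters on low counts, no minimum fold change, a replicate block, leaving out each library, 1 in place of 0.5 in the ratios and, added after the data were seen, levels by longest transcript. 1 rod marker is not reported here. No replicates agreed within sampling noise.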

Additional observations from a re-analysis of the deposited data

How the results depend on the processing

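No member and no pathway gene was called under any alternative run, and the lowest adjusted p of a member lay between 0.179 (Glra2, without OIR-Norm replicate 3) and 0.534. Of 377 member values under alternatives, 363 had the direction of the value reported and 14 the opposite one, in 10 members whose reported log2 fold changes lay between -0.14 and 0.18. Gabbr1 turned to -0.0194 with plain library totals, and the other 13 came from leaving out single libraries, where the log2 fold change ran from -0.15 to 0.0106 for Gabra2, -0.25 to 0.0129 for Gabrb1, -0.17 to 0.000328 for Gabrg1, -0.15 to 0.0921 for Gabrg3, -0.0366 to 0.0515 for Gabbr1, -0.22 to 0.0207 for Gabbr2, -0.21 to 0.000241 for Gad2, -7.906e-05 to 0.12 for Abat, -0.0828 to 0.0798 for Slc6a13 and -0.0338 to 0.29 for Slc6a5. The ratio of Slc6a9 to Slc6a5 ran from -0.19 to 0.0994 and the other 6 ratios had 1 direction each. The 63 genes called over the whole table (20 higher, 43 lower) became 135 with DESeq2 (34 and 101) and 213 with all genes that had any count (60 and 153). Leaving out single libraries gave between 35, when OIR-CIH replicate 1 was dropped, and 104, when OIR-Norm replicate 3 was dropped, of which 11 to 33 were higher and 24 to 88 lower. The 1 marker called became 3 with DESeq2, 8 with all genes that had any count, 0 with plain library totals, 0 with edgeR's own filter on low counts, and 0 to 2 without single libraries. The cause of these shifts was not tested. With the replicate number as a block, 84 genes were called, 32 higher and 52 lower, with 6 markers and 0 members among them. Whether same-numbered libraries share more than a label was not settled. Their deviations correlated at 0.104, 0.0989 and -0.181, and not every library correlated best with its own number. With 3 libraries per group, these correlations cannot decide it.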
